A study of Mus musculus with 12 samples.

Results

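Ifng, Tnf, Fasl, Tnfsf10, Tnfsf14, Lta, Ltb, Csf1, Csf2 and Il2 encode cytokines and death ligands through which CD8+ T cells act on tumor cells and on other immune cells. The genes were taken by name, and each of the 10 matched 1 of the 52636 Ensembl identifiers in the deposited count table. Their mRNA was measured by 3′ RNA-sequencing in CD8+ T cells sorted by GFP from tumors of female A2AR eGFP reporter mice. These mice carry a bacterial artificial chromosome transgene, Adora2a-EGFP, on a C57BL/6 background, so GFP reports transcription of the transgene for the adenosine receptor A2AR and not the receptor protein. The study used mice aged 6 to 16 weeks. All groups received 500000 cells of the mouse mammary carcinoma line AT3ova, which expresses ovalbumin, under the skin and were harvested at day 21. Treated mice received an antibody against PD-L1, the ligand of the T cell checkpoint receptor PD-1, at days 14 and 18. The 12 libraries fall into 4 groups of 3, non-treated GFP-, non-treated GFP+, anti-PD-L1 GFP- and anti-PD-L1 GFP+. Each library was pooled from 3 mice and carries a code from KT13 to KT24. The labels name no batch, and nothing in them ties a GFP+ library to a GFP- one.

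Interferon gamma, the product of Ifng, acts on target cells to raise antigen presentation, PD-L1 and chemokines. Tnf, Lta, Ltb, Fasl, Tnfsf10 (TRAIL) and Tnfsf14 (LIGHT) belong to the TNF superfamily, whose members are trimeric ligands of receptors that drive either NF-kB signalling or, where the receptor has a death domain, caspase activation. Csf1 and Csf2 are growth factors of macrophages and other myeloid cells, and Il2 is the T cell growth factor that signals through STAT5. In T cells many of these genes are switched on by antigen receptor signals through NFAT and are silenced again within hours, and signalling of A2AR through cyclic AMP is known to dampen their production.

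Total gene counts ranged from 11292699 to 19023900 per library. KT13 (non-treated GFP+) and KT21 (anti-PD-L1 GFP+) stood apart from the other 10 libraries. The median of their Spearman correlations with all others was 0.9411 and 0.9355, against 0.9668 to 0.977, and processed pseudogenes took 16.5% and 15% of their counts, against 19.7% to 22.3%. Tests are therefore given over all 12 libraries, the main comparison, and over the 10 without KT13 and KT21, which leaves 2 libraries in each GFP+ group. The study's legends give n = 2 for GFP+ and n = 3 for GFP- cells and do not name the libraries, whereas the labels give 3 GFP+ libraries per treatment. The sort marker Adora2a read 19.74 to 34.64 CPM (counts scaled to a common library size by TMM normalization) in GFP- and 60.17 to 111.3 CPM in GFP+ libraries. Cd8a read 798.7 to 1360 CPM and Cd4 0 to 0.9187 CPM. The 3 CD4 T cell markers summed to 7.407 to 26.1 CPM, of which Foxp3, the factor of regulatory T cells, held 6.441 to 24.88 CPM. For the B cell markers the summed level was at most 7.128 CPM. Macrophage and monocyte markers were present at a low summed level of 57.23 to 232.2 CPM. Erythroid markers summed to 73.76 to 352.5 CPM and dendritic cell markers to 68.85 to 200.8 CPM. Tumor epithelial and fibroblast markers summed to at most 32.04 and 44.07 CPM. Within bulk libraries, fewer cells that express a gene and less of its mRNA per cell cannot be told apart.

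Over the 12 libraries, edgeR's quasi-likelihood test called none of the 10 members at an adjusted p under 0.05 in any of the 7 comparisons. Over the 10 libraries it called 5 members, in comparisons where it called 1.08% (GFP averaged over treatments), 1.36% (treatment averaged over GFP groups) and 0.563% (treatment in GFP+ cells) of all genes. Tnf, Fasl and Lta were lower in GFP+ than in GFP- cells, and Ifng and Csf1 were higher after anti-PD-L1. All 10 members passed the filter on low counts in both fits, in which 14173 and 14747 genes were tested. Leaving out either KT13 or KT21 alone did not give these calls, and the count of members called by edgeR was 0 in every comparison when any single library was left out.

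**Figure D1:**
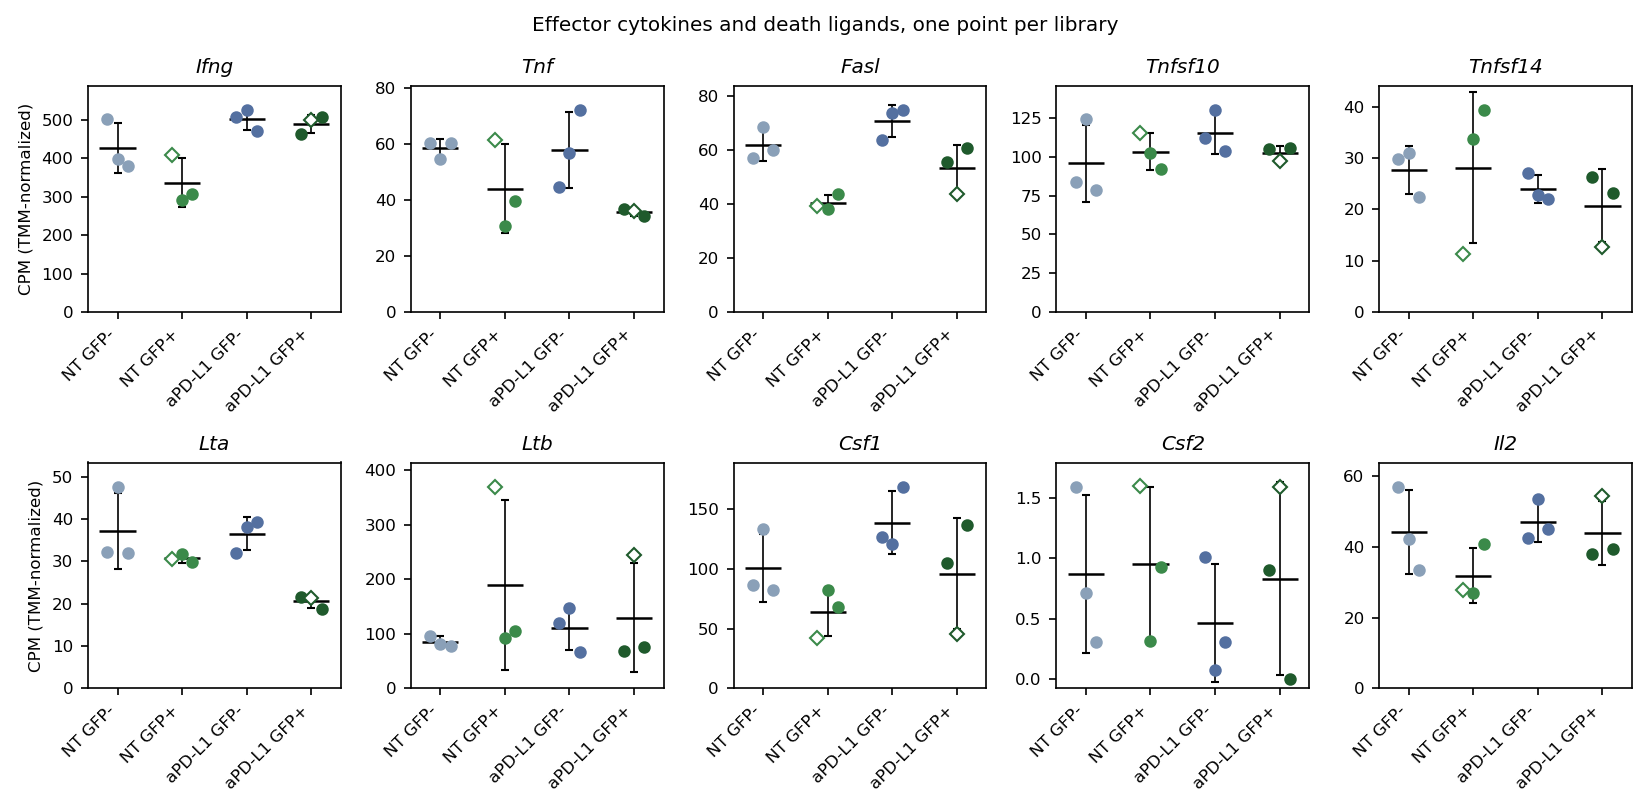
Level of each gene in CPM on an axis from 0, except for Csf2, by group of 3 libraries (NT, non-treated; aPD-L1, anti-PD-L1). Points are libraries, open diamonds are KT13 and KT21, lines are means and bars are SD. The 3 anti-PD-L1 GFP+ libraries read 18.81 to 21.51 CPM for Lta, below all other libraries, and the open diamonds read 369.8 and 245.3 CPM for Ltb.

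The sequences just before the start sites are shown for these 5 genes, because they are the members that were called over 10 libraries. Each sequence holds the 250 bases upstream of the RefSeq start (build GRCm38.p6), 5′ to 3′ on the strand of the gene, and capitals mark matches to any of 7 motifs searched on both strands. The motifs were the NFAT core GGAAA, the AP-1 site TGANTCA, the cyclic AMP response element TGACGTCA, the TATA box TATAAA, the T-box site GGTGTGA, the STAT site TTCNNNGAA and the NF-kB site.
Tnf: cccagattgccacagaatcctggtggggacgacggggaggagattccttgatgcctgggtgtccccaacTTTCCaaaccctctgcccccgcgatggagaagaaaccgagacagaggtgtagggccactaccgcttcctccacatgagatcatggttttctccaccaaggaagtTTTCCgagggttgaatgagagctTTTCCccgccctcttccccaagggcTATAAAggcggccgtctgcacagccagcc
Lta: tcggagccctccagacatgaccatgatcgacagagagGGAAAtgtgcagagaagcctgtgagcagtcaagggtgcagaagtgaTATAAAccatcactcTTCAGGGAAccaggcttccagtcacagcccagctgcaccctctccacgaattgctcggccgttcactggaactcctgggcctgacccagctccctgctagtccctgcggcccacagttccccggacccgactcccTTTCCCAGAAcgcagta
Fasl: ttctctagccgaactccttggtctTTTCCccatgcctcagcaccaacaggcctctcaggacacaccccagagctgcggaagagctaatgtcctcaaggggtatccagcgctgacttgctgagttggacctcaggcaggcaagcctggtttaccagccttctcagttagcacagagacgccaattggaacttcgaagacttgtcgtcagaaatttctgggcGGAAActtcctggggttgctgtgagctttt
Ifng: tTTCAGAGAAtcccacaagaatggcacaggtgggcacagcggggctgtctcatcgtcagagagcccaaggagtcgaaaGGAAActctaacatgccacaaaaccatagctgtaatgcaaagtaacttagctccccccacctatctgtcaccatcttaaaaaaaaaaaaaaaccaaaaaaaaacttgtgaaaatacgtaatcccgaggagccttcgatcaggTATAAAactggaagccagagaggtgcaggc
Csf1: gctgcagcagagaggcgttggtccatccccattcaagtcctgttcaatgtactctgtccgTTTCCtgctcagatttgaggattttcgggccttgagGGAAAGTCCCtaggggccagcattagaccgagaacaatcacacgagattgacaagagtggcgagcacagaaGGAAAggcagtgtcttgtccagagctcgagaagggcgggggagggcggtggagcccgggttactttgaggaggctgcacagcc
The windows lie at chr17:35202008-35202257 on the minus strand for Tnf, chr17:35205352-35205601 on the minus strand for Lta, chr1:161788496-161788745 on the minus strand for Fasl, chr10:118440796-118441045 on the plus strand for Ifng and chr3:107760470-107760719 on the minus strand for Csf1. The NFAT core was found in 10 of the 10 members and in 55.6% of the 32851 RefSeq promoter windows of the same length. Tnf held it at 3 places, Csf1 at 3, Lta at 2, Fasl at 2 and Ifng at 1. A TATA box was found in 4 members, Tnf, Lta, Ifng and Il2, and in 12.4% of all windows. It began 29 bases before the start in Tnf, 30 in Ifng and 31 in Il2, but 167 bases before it in Lta. The STAT site was found in 3 members, against 7.02% of all windows, with 2 matches in Lta and 1 each in Ifng and Ltb, and one match in Lta shares bases with an NFAT core. The NF-kB site was found in Ltb and Csf1 (7.25% of windows), in Csf1 over an NFAT core, and the AP-1 site in Tnfsf14 alone (6.75%). The cyclic AMP response element (1.55% of windows) and the T-box site (3.33%) were found in 0 of the 10 members. These matches describe letters in short windows and do not locate binding.

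Tnf, Lta and Ltb are neighbours on chromosome 17. In the GENCODE vM21 annotation of mm10 they lie at 35199381 to 35202007 (Tnf, minus strand), 35203165 to 35205351 (Lta, minus strand) and 35194439 to 35196320 (Ltb, plus strand), with 1157 bases between Tnf and Lta and 3060 bases between Ltb and Tnf. No other annotated gene shared exon bases with these 3 genes.

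Tnf encodes the cytokine that gives the family its name. In non-treated GFP- libraries it read 60.36 CPM in KT14, 54.6 in KT16 and 60.45 in KT18, and in non-treated GFP+ libraries 61.51 in KT13, 30.84 in KT15 and 39.65 in KT17. After anti-PD-L1 it read 44.63 CPM in KT20, 56.81 in KT22 and 72.02 in KT24 among GFP- libraries, and 36.84 in KT19, 35.87 in KT21 and 34.29 in KT23 among GFP+ libraries. The treated GFP+ libraries all lay below the treated GFP- libraries, and of the non-treated GFP+ libraries KT15 and KT17 lay below the GFP- libraries and KT13 just above them. Averaged over both treatments, the log2 fold change of Tnf in GFP+ against GFP- cells was -0.55 ± 0.163 (SE) over 12 libraries, with an adjusted p of 0.311. Over 10 libraries it was -0.72 ± 0.127, with an adjusted p of 0.00342. An exact two-sided permutation test of log2(CPM + 0.5), with GFP labels exchanged within each treatment, gave p = 0.02 over 12 libraries (400 relabellings) and 0.01 over 10 (100 relabellings).

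Lta encodes lymphotoxin alpha, a secreted ligand of the TNF receptors that also joins lymphotoxin beta at the cell surface. It read 32.17, 47.6 and 31.91 CPM in the non-treated GFP- libraries and 30.44 (KT13), 31.79 and 29.82 CPM in the non-treated GFP+ libraries. After anti-PD-L1 it read 32.04, 38.21 and 39.33 CPM in GFP- libraries and 21.51, 21.31 (KT21) and 18.81 CPM in GFP+ libraries. Thus the highest of the 6 GFP+ libraries, at 31.79 CPM, lay just below the lowest of the 6 GFP- libraries, at 31.91 CPM, and the treated GFP+ libraries formed a separate low group. Lta was the 1 member of 10 whose 6 GFP+ and 6 GFP- libraries did not overlap, a separation that 0.967% of the tested genes showed. In order of mean level, non-treated GFP- (37.22 ± 8.985 CPM, SD, n = 3) and treated GFP- cells (36.53 ± 3.924) overlapped, and non-treated GFP+ (30.68 ± 1.006) and treated GFP+ cells (20.54 ± 1.505) each lay apart from the group above.

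The averaged log2 fold change of Lta in GFP+ cells was -0.55 ± 0.13 over 12 libraries (adjusted p = 0.124) and -0.57 ± 0.136 over 10 (adjusted p = 0.04). The exact permutation test gave p = 0.005 over 12 libraries and 0.01 over 10. After anti-PD-L1 the fold change was -0.83 ± 0.186 (adjusted p = 0.244) over 12 and -0.86 ± 0.196 (adjusted p = 0.0876) over 10, and in non-treated cells it was -0.28 ± 0.183 and -0.28 ± 0.189. The change with treatment was -0.58 ± 0.185 in GFP+ cells and -0.03 ± 0.183 in GFP- cells over 12 libraries, and -0.61 ± 0.211 and -0.03 ± 0.168 over 10. The difference between these, the interaction of GFP and treatment, was -0.55 ± 0.26 over 12 libraries (unadjusted p = 0.0529) and -0.58 ± 0.269 over 10 (unadjusted p = 0.0416), with an adjusted p of 1 in both, so a difference between the arms did not pass the test.

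Fasl encodes Fas ligand, which kills cells that carry the death receptor Fas. In non-treated cells it read 57.01, 68.3 and 59.84 CPM in GFP- libraries and 39.25 (KT13), 38.12 and 43.63 CPM in GFP+ libraries. After anti-PD-L1 it read 63.65, 73.42 and 74.59 CPM in GFP- libraries and 55.27, 43.6 (KT21) and 60.5 CPM in GFP+ libraries. The GFP+ libraries lay below the GFP- libraries in both treatments. Averaged over treatments, the log2 fold change in GFP+ cells was -0.51 ± 0.113 over 12 libraries (adjusted p = 0.0904) and -0.44 ± 0.104 over 10 (adjusted p = 0.034), and the exact permutation test gave p = 0.005 and 0.01, the smallest that 400 and 100 relabellings allow. With treatment Fasl changed by 0.30 ± 0.113 (adjusted p = 0.518) over 12 libraries and by 0.35 ± 0.103 (adjusted p = 0.109) over 10, and the exact permutation test gave p = 0.02 and 0.0333.

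Counted over the members, GFP+ against GFP- cells averaged over treatments gave negative log2 fold changes in 8 of 10 over 12 libraries, with 0 called, 4 at an unadjusted p under 0.05 and a median of -0.24, against a median of 0.00 for all tested genes. Of the 14173 tested genes, 1160 had an unadjusted p under 0.05. edgeR called 0.31% of all genes in this comparison over 12 libraries and 1.08% over 10, where 3 of 10 members were called and 9 were negative with a median of -0.29. Over 12 libraries DESeq2 called 2 members (Fasl and Lta) and 1.11% of all genes to which it gave an adjusted p, and limma voom with sample quality weights called 3 (Tnf, Fasl and Lta) and 0.889% of all genes. In non-treated cells alone 0 members were called over 12 or 10 libraries (background 0.00706% and 0.339%), with 2 and 5 at an unadjusted p under 0.05. At that unadjusted p were 857 of 14173 and 1362 of 14747 genes in non-treated cells. There DESeq2 and voom also called 0 over 12 libraries (background 0.374% and 0.0847%), and DESeq2 called 3 over 10 (Ifng, Tnf and Fasl, background 1.1%). After anti-PD-L1 alone 0 were called (background 0.0282% and 0.17%), with 3 and 3 at an unadjusted p under 0.05, and DESeq2 called Lta over 12 libraries (background 0.375%) whereas voom called 0 (background 0.141%). Among all tested genes edgeR gave an unadjusted p under 0.05 to 578 over 12 and 788 over 10 libraries there. Fasl and Lta did not overlap between the 3 and 3 non-treated libraries, as 12.8% of all genes did, and Tnf, Fasl and Lta did not overlap after anti-PD-L1, as 10.6% of all genes did.

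**Figure D2:**
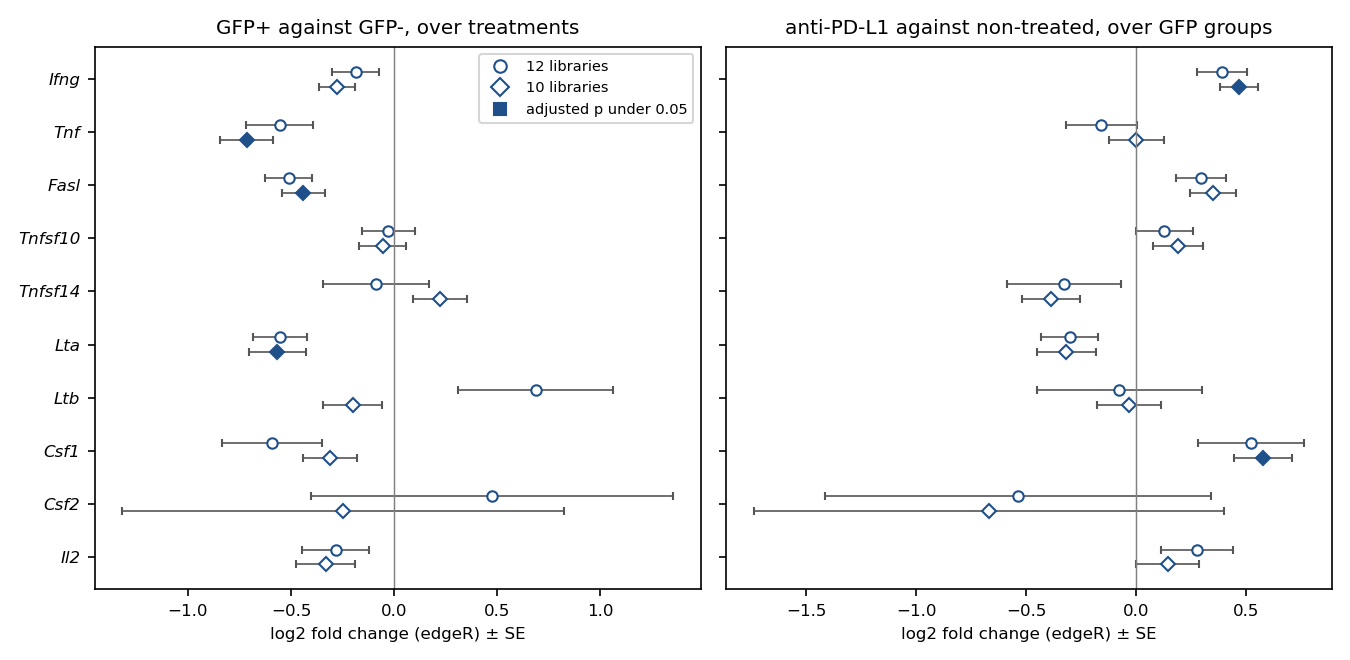
Log2 fold changes of the 10 genes (horizontal axis) from edgeR, in GFP+ against GFP- cells averaged over treatments (left) and in anti-PD-L1 against non-treated cells averaged over GFP groups (right). Bars are SE derived from the F statistic of the test. Circles are fits over 12 libraries and diamonds over 10, and filled symbols mark an adjusted p under 0.05. Filled symbols appear for Tnf, Fasl and Lta at left and for Ifng and Csf1 at right, and Ltb changes sign at left between 0.69 and -0.20.

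Markers of the T cell and of other cells moved with GFP as well. Over 10 libraries 7 of 7 T cell markers had negative log2 fold changes in GFP+ cells and 2 were called, Cd8a (-0.30 ± 0.0697, adjusted p = 0.0333) and Cd8b1 (-0.54 ± 0.0916, adjusted p = 0.00209), whereas over 12 libraries 4 of 7 were negative and 0 called. The 8 macrophage and monocyte markers were all positive with 0 called. Summed NK cell markers read 47.4 to 65.33 CPM in GFP+ and 17 to 38.46 CPM in GFP- libraries, and 1 of the 4, Klrb1c, was called. The part of these differences in the levels of Tnf, Lta and Fasl was not tested.

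Ifng (chr10:118441046-118445892, plus strand) encodes interferon gamma. In non-treated cells it read 500.8, 397.5 and 379.6 CPM in GFP- libraries and 409.6 (KT13), 290.9 and 307.9 CPM in GFP+ libraries. After anti-PD-L1 it read 507.6, 524.9 and 470 CPM in GFP- libraries and 463.6, 499.7 (KT21) and 506.8 CPM in GFP+ libraries. All treated GFP+ libraries lay above all non-treated GFP+ libraries, while the treated and non-treated GFP- libraries overlapped through KT14. In GFP+ cells the mean was 336.1 ± 64.21 CPM (SD, n = 3) without and 490 ± 23.17 CPM (n = 3) with treatment, a log2 fold change of 0.54 ± 0.162 (SE) with an adjusted p of 0.426. Over 10 libraries the change was 0.70 ± 0.132 with an adjusted p of 0.00883, a fold of 1.622. In GFP- cells the change was 0.23 ± 0.162 over 12 libraries (adjusted p = 1) and 0.24 ± 0.107 over 10 (adjusted p = 0.658).

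Averaged over the GFP groups, Ifng changed with treatment by 0.39 ± 0.114 over 12 libraries (adjusted p = 0.273) and by 0.47 ± 0.0852 over 10 (adjusted p = 0.00312). The exact permutation test, with treatment labels exchanged within GFP groups, gave p = 0.01 over 12 libraries and 0.0333 over 10 (120 relabellings). It counted GFP+ and GFP- libraries as independent, and whether they share mice is not given. The interaction was 0.31 ± 0.228 (unadjusted p = 0.196) over 12 libraries and 0.46 ± 0.17 (unadjusted p = 0.0124) over 10, with an adjusted p of 1 in both, so the larger change in GFP+ cells was not shown to differ from that in GFP- cells. Between GFP+ and GFP- cells, averaged over treatments, Ifng differed by -0.19 ± 0.114 (adjusted p = 0.708) over 12 libraries and by -0.28 ± 0.0856 (adjusted p = 0.162) over 10, with exact permutation p of 0.155 and 0.04. In non-treated cells alone Ifng differed with GFP by -0.34 ± 0.162 (adjusted p = 0.833) over 12 libraries and by -0.51 ± 0.122 (adjusted p = 0.0794) over 10. After anti-PD-L1 it differed by -0.03 ± 0.161 over 12 libraries and by -0.05 ± 0.12 over 10. A predicted gene, Gm49751, shares exon bases with Ifng on the same strand and took 123 counts over all libraries against 77929 for Ifng.

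Since Ifng and Tnf are often measured together as effector cytokines, their counts were also set side by side within each library, after their values had been seen and therefore with no test. There were 12.58, 13.93 (KT21) and 14.78 Ifng counts per Tnf count in the treated GFP+ libraries. The ratio was 11.37, 9.24 and 6.526 in treated GFP-, 6.66 (KT13), 9.433 and 7.767 in non-treated GFP+ and 8.296, 7.281 and 6.28 in non-treated GFP- libraries. The treated GFP+ libraries thus held the 3 highest ratios, with Ifng at the level of treated GFP- cells and Tnf at the level of KT15 and KT17.

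Csf1 (chr3:107741048-107760469, minus strand) encodes macrophage colony-stimulating factor. In non-treated cells it read 86.91, 133.3 and 82.19 CPM in GFP- libraries and 42.01 (KT13), 82.63 and 67.94 CPM in GFP+ libraries. After anti-PD-L1 it read 127.2, 120.7 and 169.1 CPM in GFP- libraries and 105.5, 45.58 (KT21) and 137.1 CPM in GFP+ libraries. KT13 and KT21 held the 2 lowest values, and the other treated and non-treated GFP+ libraries were separate. Averaged over GFP groups, Csf1 changed with treatment by 0.52 ± 0.243 over 12 libraries (adjusted p = 0.65) and by 0.58 ± 0.132 over 10 (adjusted p = 0.024, a fold of 1.491). The exact permutation test gave p = 0.135 over 12 libraries and 0.05 over 10. In GFP+ against GFP- cells the averaged difference was -0.59 ± 0.243 (adjusted p = 0.539) over 12 libraries and -0.31 ± 0.132 (adjusted p = 0.402) over 10, with exact permutation p of 0.04 and 0.17.

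**Figure D3:**
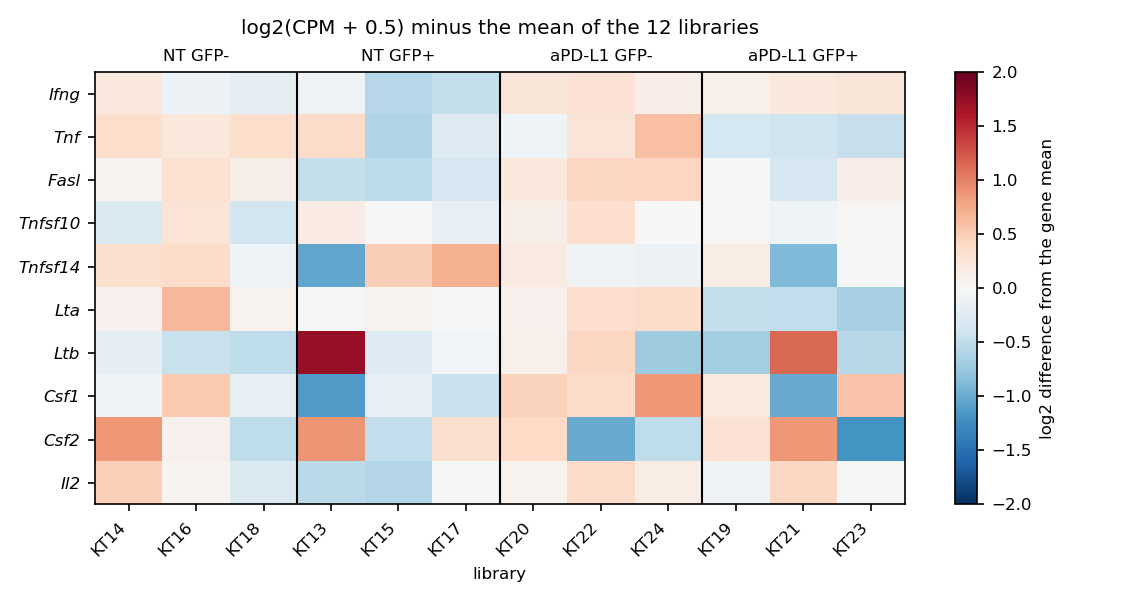
Log2(CPM + 0.5) of the 10 genes (rows) in the 12 libraries (columns, in groups of 3) minus the mean of each gene, from blue (lower) to red (higher). KT13 and KT21 show high Ltb with low Csf1 and Tnfsf14, and the anti-PD-L1 GFP+ columns show low Tnf and Lta beside Ifng above its mean.

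Counted over the members, anti-PD-L1 against non-treated cells averaged over GFP groups gave 0 called over 12 libraries (4 at an unadjusted p under 0.05, 5 positive and 5 negative, median 0.03, against -0.01 for all genes) and 2 over 10, both higher (median 0.07). Over 12 libraries 1087 of the 14173 tested genes had an unadjusted p under 0.05. The background was 0.395% of genes over 12 and 1.36% over 10 libraries. DESeq2 called 0 members over 12 libraries (background 1.3%) and voom called 1, Ifng (background 0.931%). In GFP+ cells alone 0 were called over 12 libraries (3 at an unadjusted p under 0.05, as were 955 of all tested genes, background of calls 0.0141%) and 1 over 10 (background 0.563%). There DESeq2 called 0 over 12 libraries (background 0.697%) and voom called 1, again Ifng (background 0.367%). In GFP- cells alone edgeR, DESeq2 and voom each called 0 members (0 at an unadjusted p under 0.05 over 12 libraries and 3 over 10 in edgeR, background 0% and 0.373%), where over 12 libraries DESeq2 called 0.233% and voom 0.24% of all genes. Among all tested genes 487 over 12 and 1064 over 10 libraries had an unadjusted p under 0.05 in edgeR. Ifng and Lta did not overlap between the 3 and 3 GFP+ libraries, Ifng higher and Lta lower after treatment, as 10.3% of all genes did, and 0 members were separate among GFP- libraries, against 12.3% of all genes. Between all 6 treated and 6 non-treated libraries 0 members were separate, against 0.84% of all genes. The interaction called 0 members by edgeR, DESeq2 and voom (0 at an unadjusted p under 0.05 over 12 libraries and 3 over 10 in edgeR, background 0% in each). Of all tested genes, 295 over 12 and 632 over 10 libraries had an unadjusted p under 0.05 for it in edgeR.

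The marker lists moved with treatment too. Over 10 libraries 7 of 7 T cell markers were positive after anti-PD-L1 and 2 were called, and Cd8a changed by 0.38 ± 0.0693 (adjusted p = 0.00301). Over 12 libraries Cd8a changed by 0.40 ± 0.0851 (adjusted p = 0.0667) and 0 of the 7 were called. Summed macrophage and monocyte markers read 119.8 to 232.2 CPM in non-treated and 57.23 to 131.5 CPM in treated libraries, and 2 of the 8 were called lower over 12 libraries and 4 over 10. The part of these differences in the levels of Ifng and Csf1 was not tested.

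Among the other TNF superfamily members, Tnfsf10 (chr3:27317028-27342427, plus strand) encodes TRAIL, a ligand of death receptors. It ranged from 78.88 to 130.2 CPM, with all groups overlapping over 12 libraries, and the averaged log2 fold changes over 12 libraries were -0.03 ± 0.129 with GFP (adjusted p = 0.972) and 0.13 ± 0.129 with treatment (adjusted p = 0.951). Over 10 libraries they were -0.06 ± 0.115 (adjusted p = 0.929) and 0.19 ± 0.115 (adjusted p = 0.588). Tnfsf14 (chr17:57189492-57194177, minus strand), whose product LIGHT binds HVEM and the lymphotoxin beta receptor, read 11.39 CPM in KT13 and 12.74 CPM in KT21 and 22.04 to 39.38 CPM in the other 10 libraries. Over 10 libraries its highest group was non-treated GFP+, at 33.75 and 39.38 CPM. Its averaged change with treatment was -0.33 ± 0.257 (adjusted p = 0.891) over 12 libraries and -0.39 ± 0.132 (adjusted p = 0.201) over 10. With GFP the difference was -0.09 ± 0.257 over 12 libraries and 0.22 ± 0.132 over 10, with opposite signs and adjusted p of 0.952 and 0.61.

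Ltb encodes lymphotoxin beta, which anchors lymphotoxin alpha in the membrane and is a product of naive and memory T cells and of B cells. It read 369.8 CPM in KT13 and 245.3 CPM in KT21. The other GFP+ libraries read 92.19 and 106.2 CPM without and 69.24 and 75.46 CPM with treatment, and GFP- libraries read 96.73, 81.34 and 77.23 CPM without and 119.3, 148 and 67.04 CPM with treatment. Outside KT13 and KT21 the treated GFP+ libraries lay below all non-treated libraries, and the treated GFP- libraries spread over most of the range. The log2 fold change in non-treated GFP+ against GFP- cells was 1.15 ± 0.536 (adjusted p = 0.822) over 12 libraries and 0.22 ± 0.203 (adjusted p = 0.8) over 10, and the averaged difference with GFP turned from 0.69 ± 0.376 (adjusted p = 0.668) to -0.20 ± 0.145 (adjusted p = 0.698). After anti-PD-L1 the difference with GFP was 0.22 ± 0.53 (adjusted p = 0.993) over 12 libraries and -0.62 ± 0.208 (adjusted p = 0.51) over 10. In KT13 and KT21 the 4 B cell markers summed to 4.273 and 7.128 CPM, against 2.532 to 6.522 CPM in the other libraries, and 1 of them had 3 counts or fewer in every library. The interaction of GFP and treatment for Ltb was -0.93 ± 0.751 (unadjusted p = 0.235) over 12 libraries and -0.85 ± 0.29 (unadjusted p = 0.00784) over 10, with an adjusted p of 1 in both.

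Il2 (chr3:37120523-37125959, minus strand) read 56.9, 42.17 and 33.32 CPM in non-treated GFP- libraries, 27.68 (KT13), 26.91 and 40.71 CPM in non-treated GFP+ libraries, 42.46, 53.32 and 44.92 CPM in treated GFP- libraries and 37.94, 54.37 (KT21) and 39.47 CPM in treated GFP+ libraries. Over 12 libraries the groups overlapped in every comparison, and without KT21 the treated GFP+ libraries lay below the treated GFP- libraries. The averaged difference with GFP was -0.28 ± 0.163 (adjusted p = 0.681) over 12 libraries and -0.33 ± 0.144 (adjusted p = 0.42) over 10. With treatment it was 0.28 ± 0.163 (adjusted p = 0.79) and 0.14 ± 0.143 (adjusted p = 0.792).

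Csf2 (chr11:54247271-54249667, minus strand), which encodes the granulocyte-macrophage colony-stimulating factor, was close to the limit of detection, with 0 to 28 counts per library and 138 in all. It was at 0 counts in KT23, where a count of 0 allows up to 0.218 CPM (3 counts, counting error only), and the highest libraries read 1.602 CPM (KT13), 1.592 CPM (KT21) and 1.588 CPM (KT14). Its averaged log2 fold changes were 0.47 with GFP and -0.54 with treatment over 12 libraries, each with an SE of 0.878, and -0.25 and -0.67 over 10, each with an SE of 1.07, and could not be told from 0 at this depth.

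Of 79 entries in 8 lists around these cytokines, namely their receptors, death receptor signalling, interferon gamma targets, transcription factors, regulators of AU-rich mRNA, sheddases and secretion, other TNF superfamily ligands and other T cell cytokines, 68 were tested over 12 libraries and 69 over 10. Over 12 libraries edgeR called 0 of them in each of the 7 comparisons. Over 10 libraries 7 were called with treatment averaged over GFP groups, 3 higher and 4 lower (background 1.36% of all genes), 1 with GFP averaged over treatments (background 1.08%) and 1 with treatment in GFP- cells (background 0.373%).

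Among the 14 receptors, Il2rb, the beta chain of the interleukin 2 and interleukin 15 receptors, was higher after anti-PD-L1 (0.27 ± 0.0686, adjusted p = 0.0477 over 10 libraries, and 0.22 ± 0.0908, adjusted p = 0.57 over 12). Csf1r and Csf2ra, the receptors for the products of Csf1 and Csf2 that mark myeloid cells, were lower by 1.30 ± 0.274 (adjusted p = 0.0125) and 1.21 ± 0.287 (adjusted p = 0.0322) on the log2 scale over 10 libraries. Over 12 libraries their changes were -1.10 ± 0.291 (adjusted p = 0.202) and -1.14 ± 0.349 (adjusted p = 0.304). Csf1r read 7.035 to 21.4 CPM in non-treated and 2.814 to 9.631 CPM in treated libraries and is itself one of the macrophage markers above. The median of the list was -0.07 over 10 libraries.

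Of the 8 interferon gamma targets 7 were tested, and Cxcl10, a chemokine that draws T cells, was called lower. It read 137.9 to 241.5 CPM in non-treated and 74.16 to 146.3 CPM in treated libraries. With treatment it changed by -0.51 ± 0.091 (adjusted p = 0.00262) over 10 libraries and by -0.73 ± 0.152 (adjusted p = 0.0635) over 12, in the direction opposite to Ifng. With GFP the change was -0.40 ± 0.0917 (adjusted p = 0.0285) over 10 libraries and -0.35 ± 0.151 (adjusted p = 0.574) over 12, and in GFP- cells with treatment it was -0.58 ± 0.115 (adjusted p = 0.0153) over 10 and -0.58 ± 0.214 (adjusted p = 1) over 12. The median of the 7 targets with treatment was 0.01 over 10 libraries. Of the 8 macrophage and monocyte markers, 2 were called lower with treatment over 12 libraries and 4 over 10. Their part in the level of Cxcl10 was not tested.

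In the list of sheddases and secretion, Rab27a and Lyst, which act in the release and biogenesis of lytic granules, were higher after anti-PD-L1 over 10 libraries (0.67 ± 0.151, adjusted p = 0.0224, and 0.59 ± 0.142, adjusted p = 0.0335), with 0.59 ± 0.265 (adjusted p = 0.634) and 0.46 ± 0.176 (adjusted p = 0.515) over 12. Of 12 other TNF superfamily ligands 8 were tested over 10 libraries, and Tnfsf8, which encodes CD30 ligand, was lower with treatment (-0.71 ± 0.18, adjusted p = 0.0474, and -0.71 ± 0.197, adjusted p = 0.237, over 12). None of the 10 death receptor signalling genes, the 12 transcription factors, the 8 regulators of AU-rich mRNA and the 5 tested of 10 other T cell cytokines was called by edgeR in any comparison over 12 or 10 libraries.

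The genes whose pattern was most like that of each member were read from Pearson correlations of log2(CPM + 0.5) over the 12 libraries among the 14173 tested genes, as a description of points that share their depth and, in part, their group. For Lta these were Itgae (r = 0.975), Slco3a1 (0.931) and Rxra (0.899), and Itgae remained its first gene over 10 libraries (r = 0.978). Itgae encodes CD103, the integrin chain of tissue-resident T cells. It read 124.9 to 189.4 CPM in GFP- libraries, 115.9 to 133.9 CPM in non-treated GFP+ libraries and 79.02 to 90.24 CPM in treated GFP+ libraries. For Csf1 the closest were Rac1 (r = 0.972), Cxcr6 (0.961) and Gzmb (0.957), a chemokine receptor of resident T cells and granzyme B among them. For Fasl they were AA467197 (0.956), Glrx (0.953) and Klri2 (0.942), and for Ifng D17H6S53E (0.918), Entpd1 (0.911) and Hif1a (0.906), where Entpd1 encodes CD39, an ectoenzyme upstream of adenosine.

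**Figure D4:**
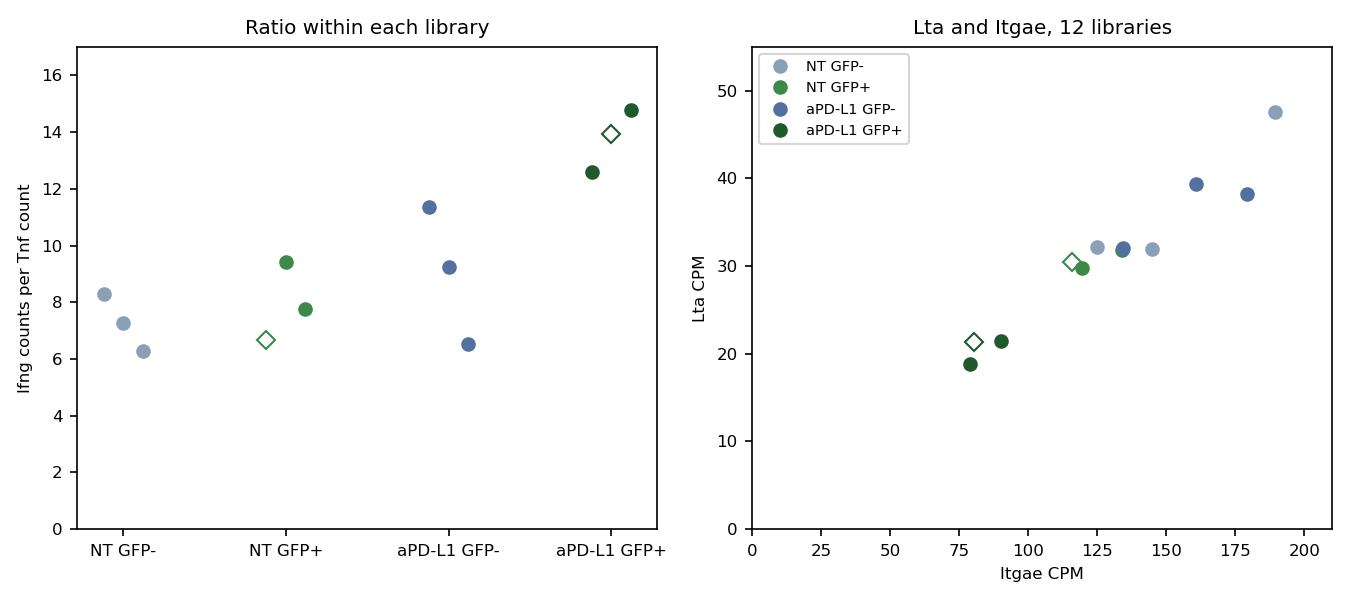
Left, Ifng counts per Tnf count in each library by group (NT, non-treated; aPD-L1, anti-PD-L1). Right, CPM of Lta against CPM of Itgae in the 12 libraries, coloured by group, with KT13 and KT21 as open diamonds in both panels. The anti-PD-L1 GFP+ libraries have ratios of 12.58 to 14.78 at left and the lowest values of both genes at right.

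Among the closest genes were, for Tnf, Wbp4 (0.875) and Pimreg (0.86), for Tnfsf10 Fli1 (0.877), Kdelc1 (0.868) and Dmxl1 (0.856), and for Il2 Ntan1 (0.941), Grap (0.883) and Ormdl1 (0.854). For Ltb they were Taf15 (0.976), Mark2 (0.969) and Usp39 (0.969), and for Tnfsf14 Pafah1b1-ps1 (0.95), Pinx1 (0.944) and Mrps11 (0.925). Without KT13 and KT21 the correlations of Ltb with its 3 genes were 0.856 to 0.899 and those of Tnfsf14 with its 3 were 0.79 to 0.808. For Csf2, with few counts, they were Kif18a (0.903), Yif1b (0.886) and Cxadr (0.883). Between members, the highest correlation over 12 libraries was that of Fasl and Csf1 (0.841), followed by 0.666 for Tnf and Lta and for Ifng and Il2, and the lowest was that of Ltb and Csf1 (-0.771). Over 10 libraries the highest were those of Ifng and Fasl (0.788) and of Fasl and Csf1 (0.787), the lowest was that of Fasl and Tnfsf14 (-0.742), and Ltb and Csf1 stood at -0.219.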

How the data were processed

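The authors deposited raw read counts per Ensembl gene. Per the methods, reads of 75 bp were trimmed (Cutadapt), mapped to mm10 (HISAT2) and assigned to genes (featureCounts; Subread 1.6.4 in the submitters' processing notes). Strand use and multiply mapped reads are not given in the sources used here. GENCODE vM21 gave symbols for 52403 identifiers.

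Libraries were grouped by their labels. Counts were normalized by TMM, filtered by filterByExpr on the 4 groups and tested with edgeR 4.0.16 (R 4.3.3) by quasi-likelihood in 1 fit for 7 contrasts, with Benjamini-Hochberg adjustment over all tested genes within a contrast. The quasi-likelihood F test gives no SE, so each SE was derived as the absolute log2 fold change divided by the square root of F. CPM always come from the normalization over 12 libraries and carry no length correction, so levels were compared within genes. Exact permutation tests of 1 gene were two-sided and not adjusted over the members, and 3 libraries against 3 cannot go below p = 0.1. Averaged over GFP groups, treatment labels were exchanged in each group separately. Permutation p-values below 0.1 for treatment therefore rest on GFP+ and GFP- libraries being independent. DESeq2 1.42.0 and limma 3.58.1 (voom) were alternatives. The edgeR script was tested on simulated data. Pairs of libraries within groups differed beyond sampling noise (chi-square per degree of freedom at least 11.9). P-values measure the spread between libraries, which the tests took as independent. Whether GFP+ and GFP- libraries came from the same mice is not given. Reads without molecular identifiers are not independent molecules, so limits of 0 counts cover counting error only.

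The members, the gene lists and the omission of KT13 and KT21 were chosen with earlier results of these data known. Named were all members, list genes called in any comparison, and the 3 genes most correlated with each member, of which 1 is not reported here. The ratio of Ifng to Tnf, the correlations between members and the separation of 6 against 6 libraries were added after values were seen.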

Additional observations from a re-analysis of the deposited data

How the results depend on the processing

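No paired analysis was run, because the labels give each library a code of its own and no number shared between groups. Any sharing of mice between GFP+ and GFP- libraries is therefore left out of the tests. The counts of members called moved under these settings, where the main count was 0 in every comparison, and the cause was not tested. Without KT13 and KT21, edgeR called 1 for treatment in GFP+ cells, 3 for GFP and 2 for treatment, both averaged. DESeq2 called 1 for GFP after anti-PD-L1 and 2 for GFP averaged, and without KT13 and KT21 it called 3 for GFP in non-treated cells, 1 for GFP after anti-PD-L1, 1 for treatment in GFP+ cells, 3 for GFP averaged and 2 for treatment averaged. Without KT13 and KT21 it called 1.1% of all genes for GFP in non-treated cells. Its shares of all genes for the other comparisons without KT13 and KT21 are not given. With no filter beyond 1 count, edgeR called 1 for GFP in non-treated cells (Ltb), 3 for GFP averaged (Tnf, Ltb and Csf1) and 1 for treatment averaged (Csf1). The share of all genes called with no filter is not given. Ltb read 369.8 CPM in KT13 and 245.3 CPM in KT21. Without these libraries its log2 fold change with GFP was 0.22 in non-treated cells and -0.20 averaged. voom with sample quality weights called 1 for treatment in GFP+ cells, 3 for GFP averaged and 1 for treatment averaged. Upper-quartile normalization, DESeq2 size factors in edgeR, at least 10 counts in every library, the 2 groups alone and each single library left out gave 0 calls.

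Of 35 member fold changes recomputed to 710 values, 656 kept their sign and their side of the threshold, 28 became called and 26 crossed 0, none of them called. Over these settings the adjusted p for GFP averaged ranged from 4.83e-05 to 0.753 for Tnf, 0.00327 to 0.304 for Fasl and 0.0121 to 0.416 for Lta, and for treatment averaged from 1.51e-05 to 0.598 for Ifng and 0.00501 to 0.942 for Csf1. For Ifng in GFP+ cells it ranged from 6.12e-05 to 1. For Ltb with GFP it ranged from 0.00046 to 0.995 averaged and from 2.56e-05 to 0.999 in non-treated cells.

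Fold changes that crossed 0 without KT13 and KT21 were, in edgeR and in DESeq2, Ltb after anti-PD-L1 (-0.625 and -0.63), Ltb averaged over treatments (-0.202 and -0.204), Tnfsf14 with GFP averaged (0.222 and 0.221) and Csf2 with GFP averaged (-0.248 and -0.253), and in edgeR Tnf with treatment averaged (0.00041). The differences of log2(CPM + 0.5) with GFP crossed 0 in the same way for Tnfsf14 (0.226), Ltb (-0.162) and Csf2 (-0.155). With voom they were Ltb after anti-PD-L1 (-0.487), Tnfsf14 (0.131) and Csf2 (-0.25). With single libraries left out, values crossed 0 for Ltb with GFP after anti-PD-L1 (-0.624 without KT21 and -0.0155 without KT24; the range over all was -0.624 to 0.529), for Lta with treatment in GFP- cells (0.209 without KT16 and 0.0574 without KT20; -0.126 to 0.209), for Tnfsf10 with GFP averaged (-0.0914 to 0.0887, above 0 without KT16, KT17 or KT22), for Tnfsf14 with GFP averaged (0.0954 without KT13 and 0.037 without KT21), and with treatment averaged for Tnf (0.00256 without KT13; -0.258 to 0.00256) and Ltb (-0.496 to 0.391, above 0 without KT13, KT24, KT19 or KT23). A pseudocount of 5 in place of 0.5 crossed 0 in none of the averaged differences. The exact permutation p of Csf1 with GFP rose from 0.04 to 0.17 without KT13 and KT21. The low counts of Csf2 limit it at this depth.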
